A study of Mus musculus with 18 samples.

Results

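The collagen genes were studied here through every probe set of the array whose single annotated gene symbol has the form Col, digits, a, digits. This rule found 58 probe sets of 36 collagen genes, out of 22690 probe sets on the array, of which 20380 were annotated with 1 gene. RNA came from whole aortas of male C57Bl/6 mice, and each of the 18 samples was a pool of 3 aortas. Before harvest all mice, those of the control groups included, carried a subcutaneous pellet that released spironolactone, an antagonist of the mineralocorticoid receptor, at 20 mg/kg/day for 5 days. The aortas were then kept in organ culture in DMEM with vehicle or with aldosterone, the hormone that activates this receptor, at 100 nM. The 6 groups were vehicle at 2 h, 4 h and 8 h and aldosterone at 2 h, 4 h and 8 h, with 3 pools each. Every comparison starts from tissue that had been in culture for at least 2 h; freshly isolated aorta was not analysed here. Levels are log2 expression values, so a difference of 1 is a doubling of the signal, and the values of a group are given in the order of replicates 1, 2 and 3.

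Collagens are triple helices of alpha chains, each chain the product of its own gene, that assemble outside the cell into the fibres and sheets that carry load in the artery wall. Types I and III form the large fibrils, type V takes part in starting those fibrils, type IV forms the networks of basement membranes, and type VI forms beaded filaments around cells. In the aorta, smooth muscle cells of the media and fibroblasts of the adventitia make most of the collagen. Prolonged aldosterone excess is known for stiffening and fibrosis of vessels, and the series asks which transcripts of the aorta the hormone regulates within hours.

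The samples correlated with each other at 0.941 to 0.997 over the 20380 probe sets annotated with 1 gene. The median log2 value of 17 samples lay between 4.01 and 4.09, and that of vehicle 2 h replicate 1 was 4.42. In this replicate 1502 of the 11236 tested probe sets, 3 of them of collagens, were off by more than 1 from the mean of the other samples of its group. Results that turn on it are therefore given with and without it. Of the aortic cell types, smooth muscle was represented by 7 of 7 markers above the level set for testing, fibroblasts by 6 of 6 and endothelium by 5 of 6, with Tie1 below it. Markers of macrophages (6 of 6), adipocytes (4 of 5, with Lep below), cardiac muscle (3 of 4), cartilage (3 of 4) and red blood cells (1 of 2) were also above it, while all of those of skeletal muscle, Schwann cells, lymphocytes and mesothelium that had a probe set were below.

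A probe set was tested when its log2 value was above 4 in 3 or more of the 18 samples, which 33 of the 58 collagen probe sets met (56.9%, against 55.1% of all probe sets with 1 gene). These 33 stood for 21 genes, and 11 of the genes had 2 or more of them. All 3 type VI genes on the array, both endostatin-type genes (Col15a1 and Col18a1), 6 of 9 fibrillar genes, 5 of 6 type IV genes and 5 of 9 fibril-associated genes were among them. The fibrillar genes below the level were the cartilage collagens Col2a1, Col11a1 and Col11a2. Also below it were Col4a3, the short-chain collagens Col8a1 and Col10a1, the anchoring collagen Col7a1, the transmembrane collagens Col13a1, Col17a1 and Col25a1, Col26a1, and the fibril-associated Col9a1, Col9a2, Col20a1 and Col22a1. Just inside the rule lay Col9a3 (1460693_a_at), above 4 in 3 samples with values from 3.56 to 4.30, and Col19a1 (1421698_a_at), above 4 in 8 samples. Just outside lay Col9a1 (1421381_a_at), above 4 in 2 samples with values from 3.42 to 4.85, while Col8a1 (1418440_at), a collagen of vessel walls, ranged from 3.31 to 3.77.

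Aldosterone changed no collagen probe set past the threshold, an adjusted p of 0.05 over all 11236 tested probe sets (limma, Benjamini-Hochberg). At 2 h the count was 0 of 33, where 0.0712% of all tested probe sets were called in either direction (0.0445% higher and 0.0267% lower), and the median collagen difference from vehicle was -0.02 against -0.08 over all probe sets. At 4 h it was 0 of 33 against 0.222% of all (0.214% higher and 0.0089% lower), with medians of 0.04 and 0.01, and at 8 h 0 of 33 against 1.01% (0.881% higher and 0.133% lower), with medians of -0.03 and 0.01. The average over the 3 times gave 0 of 33 against 1.14% (0.872% higher and 0.267% lower), and the test of whether the hormone's effect differed between times gave 0 of 33 against 0.151%. Before adjustment, 2 collagen probe sets at 2 h, 0 at 4 h, 5 at 8 h, 5 in the average and 1 in the test between times had p under 0.05, out of 1232, 406, 735, 942 and 648 probe sets in all. Without vehicle 2 h replicate 1, whose spread enters every comparison, 0.418%, 0.4% and 1.6% of all tested probe sets were called at 2, 4 and 8 h, 1.91% in the average and 0.187% in the test between times, and the collagen counts were 0, 0, 1 (Col4a6), 0 and 0. The median collagen difference at 2 h was then 0.05, and median centring gave 0.12, against 0.03 and 0.06 over all probe sets. The smallest adjusted collagen p was 0.302 at 2 h, 1 at 4 h, 0.335 at 8 h, 0.337 in the average and 0.865 in the test between times.

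The 95% intervals of the differences show how large a change these samples leave possible. For the average over times, the 95% interval lay within a 1.5-fold change in either direction for 31 of 33 collagen probe sets and within a 2-fold change for all 33. At single times the interval lay within 1.5-fold for 23 probe sets at 2 h, 26 at 4 h and 20 at 8 h, and within 2-fold for 30, 32 and 30. Point estimates ran from -0.88 to 1.03 at 2 h, from -0.34 to 0.31 at 4 h and from -0.61 to 0.52 at 8 h. The 3 aldosterone pools did not overlap the 3 vehicle pools for 2 collagen probe sets at 2 h, 3 at 4 h and 4 at 8 h, and 14.6%, 10.3% and 14.6% of all tested probe sets separated in that way.

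**Figure D1:**
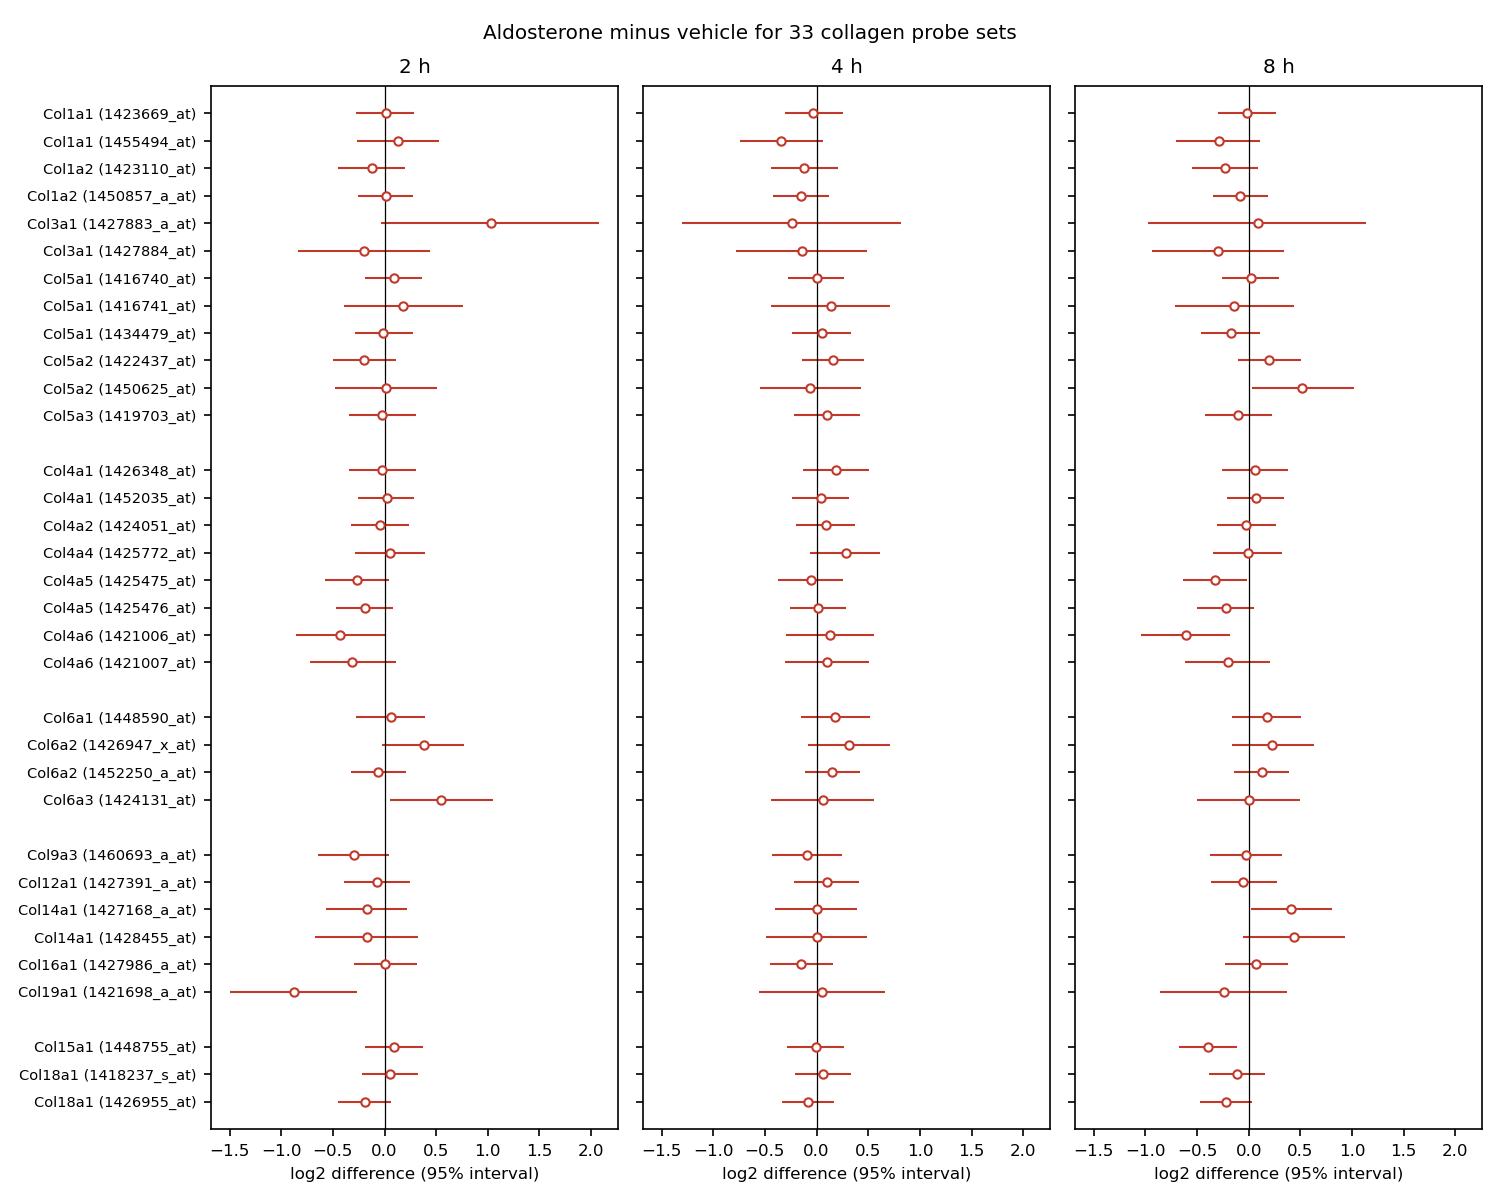
Difference between aldosterone and vehicle on the log2 scale for the 33 tested collagen probe sets at 2, 4 and 8 h. Points are differences of means of 3 pools, bars are 95% intervals, gaps separate the classes of collagens, and open symbols mark an adjusted p above 0.05, which all 33 have at each time; the widest bars belong to Col3a1 (1427883_a_at).

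The lowest collagen p at 8 h belonged to Col4a6, a chain of smooth muscle basement membrane. Its probe set 1421006_at read 7.33, 7.35 and 6.99 in vehicle and 6.52, 6.81 and 6.51 with aldosterone at 8 h, without overlap. The difference of -0.61 ± 0.20 (SE) had an adjusted p of 0.335. It was past the threshold after quantile normalization (adjusted p = 0.0496), with array weights (0.0107) and without vehicle 2 h replicate 1 (0.0197), a sample that is not part of this difference. The other Col4a6 probe set, 1421007_at, differed by -0.20 ± 0.20 at 8 h (adjusted p = 1), and its pools overlapped. Col15a1, a proteoglycan collagen of basement membrane zones, read 9.09, 9.14 and 8.76 in vehicle and 8.47, 8.85 and 8.50 with aldosterone at 8 h. The 2 groups overlapped, and the difference was -0.39 ± 0.13 (adjusted p = 0.351).

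Col14a1 and Col5a2 had the highest estimates at 8 h. Col14a1 (1427168_a_at), a collagen on the surface of fibrils, read 7.24, 6.78 and 6.98 in vehicle and 7.34, 7.59 and 7.31 with aldosterone, without overlap, a difference of 0.41 ± 0.19 (adjusted p = 0.736). Col5a2 (1450625_at) read 5.52, 5.50 and 5.92 in vehicle and 6.26, 6.50 and 5.75 with aldosterone, with overlap, a difference of 0.52 ± 0.23 (adjusted p = 0.716). With array weights both were past the threshold, at adjusted p = 0.0405 for Col14a1 and 0.0324 for Col5a2. The other probe sets of these genes were not past it under any setting. At 8 h Col14a1 (1428455_at) had means of 6.57 in vehicle and 7.01 with aldosterone, without overlap. Col5a2 (1422437_at), the brighter probe set of its gene, had means of 11.24 and 11.44, with overlap. At 2 h, the extreme estimates rest on vehicle replicate 1. Col3a1 (1427883_a_at) had a difference of 1.03 ± 0.50, with that replicate at 10.93 and the other vehicle pools at 13.86 and 13.84, and one of 0.05 ± 0.19 without it. Col6a3 had a difference of 0.55 ± 0.24 with it and of 0.11 ± 0.10 without it, and Col19a1 one of -0.88 ± 0.29 with it and of -0.51 ± 0.26 without it. When the filter on low values was dropped, Col20a1 (1425235_s_at), whose 18 values ran from 2.81 to 3.94, was called lower with aldosterone at 2 h, by -0.86 ± 0.11 (adjusted p = 0.00353), and in the average, by -0.35 ± 0.06 (adjusted p = 0.0211).

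Most of the tested collagens were lower after 8 h than after 2 h in culture, in vehicle and with aldosterone. From 2 to 8 h in vehicle, 22 of 33 probe sets fell and 2 rose, while 30.7% of all tested probe sets fell and 25.6% rose (56.3% called in all). The median collagen difference was -0.96, against -0.07 over all tested probe sets. With aldosterone 23 of 33 fell and none rose from 2 to 8 h, while 25.9% of all tested probe sets fell and 28.8% rose (54.7% in all), and the medians were -1.03 and 0.03. The 22 probe sets that fell in vehicle were all among the 23 that fell with aldosterone. They belonged to 14 genes, and 2580 of all tested probe sets, 23.0%, fell in both. Vehicle and aldosterone samples are separate pools, so the 2 sets of differences share no sample. Not among these 22 were 8 probe sets that were called in neither treatment, of Col4a1, Col4a2, Col5a3, Col6a1, Col6a2, Col9a3, Col12a1 and Col18a1. Outside them too were Col6a3 and Col15a1, which rose in vehicle, and Col3a1 (1427883_a_at), which fell with aldosterone only. For Col19a1, Col4a4 and Col9a3 no sample of 8 h was above 4, so they were tested through earlier samples, where they are higher. Among the other 30 probe sets, 20 fell in vehicle and 21 with aldosterone.

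The fall was visible in the first interval and continued in the second. From 2 to 4 h in vehicle 14 of 33 collagen probe sets fell and none rose, where 22.6% of all tested probe sets fell and 13.9% rose (36.5% in all), with medians of -0.27 and -0.11. With aldosterone 11 fell and none rose, where 18.2% of all fell and 16.9% rose (35.1% in all), with medians of -0.26 and -0.01. From 4 to 8 h in vehicle 19 fell and 1 rose, where 16.2% of all fell and 19.2% rose (35.4% in all), with medians of -0.60 and 0.02. With aldosterone 20 fell and none rose, where 15.7% of all fell and 19.6% rose (35.3% in all), with medians of -0.72 and 0.03. In both treatments 10 probe sets of 7 genes fell from 2 to 4 h, where 14.3% of all tested probe sets did so. From 4 to 8 h 18 of 11 genes fell in both, where 12.3% of all did so. The count from 2 to 4 h depended on the samples: in vehicle it was 6 when only the samples compared were fitted, and with aldosterone it was 6 without aldosterone 2 h replicate 1 or 2 and 7 without aldosterone 4 h replicate 2 or 3. Without vehicle 2 h replicate 1 it was 10 falls in vehicle and no rise, 9 of them also called with it, where 36.7% of all tested probe sets were called in either direction. The vehicle medians were then -0.25 for the collagens and -0.01 over all. With aldosterone 14 then fell and none rose, where 44.6% of all were called in either direction. The shares of all that fell are not given apart for this fit. Neighbouring intervals share samples, so their differences are not independent.

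By sample, all 6 values at 8 h lay below all 6 values at 2 h for 22 of 33 collagen probe sets, of 14 genes, where 23.2% of all tested probe sets did so. They lay above for 1, Col6a3, where 20.4% of all did so. Group means stepped down from 2 to 4 to 8 h in both treatments for 21 collagen probe sets of 13 genes (22.2% of all), and stepped up in both for none (19.2% of all). Without vehicle 2 h replicate 1, 23 lay below (24.8% of all) and 1 above (28.6% of all), and the counts of the fit from 2 to 8 h were 24 falls and 1 rise in vehicle and 24 falls and 1 rise with aldosterone. In that fit 25 of 33 collagen probe sets were thus called in either direction in each treatment. Of all tested probe sets 58.4% were called in either direction in vehicle and 61.9% with aldosterone. The shares of all that fell and that rose are not given apart for this fit.

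**Figure D2:**
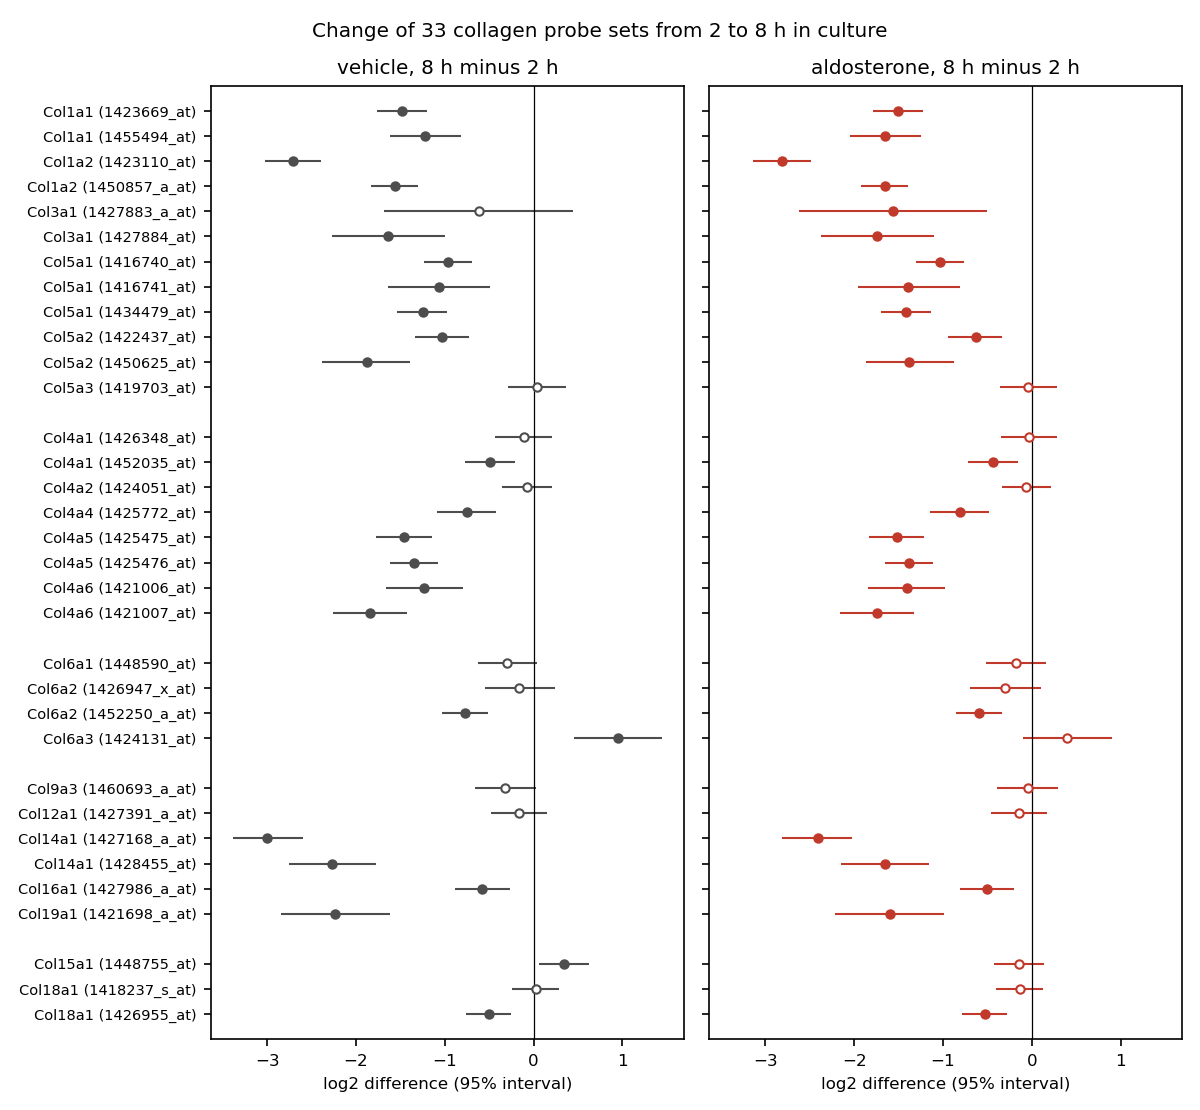
Change from 2 to 8 h in culture on the log2 scale for each of the 33 tested collagen probe sets, in vehicle and with aldosterone. Points are differences of means of 3 pools with 95% intervals, filled points have an adjusted p under 0.05, and gaps separate fibrillar, basement membrane, beaded filament, fibril-associated and endostatin-type collagens; 22 points of the vehicle panel and 23 of the aldosterone panel are filled and lie left of 0.

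Markers of several cell types moved over the same hours. The summed linear signal of the 6 fibroblast markers, 1 of which is Col14a1, ran from 13200 to 20900 at 2 h and from 6310 to 8170 at 8 h in vehicle, and from 14200 to 15800 and from 7520 to 8860 with aldosterone. All 6 fell from 2 to 8 h in both treatments. Beside this and the marker counts below, 30.7% of all tested probe sets fell and 25.6% rose in vehicle, and 25.9% and 28.8% with aldosterone. That of the 7 smooth muscle markers ran from 49500 to 69800 at 2 h and from 36200 to 42900 at 8 h in vehicle, and from 70900 to 74700 and from 33000 to 38600 with aldosterone. Of these, 5 fell and 1 rose in vehicle, and 6 fell with aldosterone. The sum of the endothelial markers ran from 1120 to 2290 at 2 h and from 607 to 698 at 8 h in vehicle, and that of the macrophage markers from 859 to 1380 and from 180 to 245. With aldosterone these sums ran from 1070 to 1460 and from 526 to 900, and from 926 to 1300 and from 183 to 221. Of the endothelial markers 4 fell in vehicle, and 4 fell and 1 rose with aldosterone, while 5 of 6 macrophage markers fell in both. The adipocyte sum ran from 17600 to 26800 at 2 h and from 11200 to 12100 at 8 h in vehicle, and from 19400 to 23800 and from 15000 to 17900 with aldosterone. All 4 tested adipocyte markers fell in vehicle and 3 fell with aldosterone, with medians of -1.79 and -1.40. Fabp4, the brightest of them at 13.19 to 14.42, differed by -0.77 and -0.28 (adjusted p = 0.000118 and 0.0914). The cartilage markers summed to a mean of 269 at 2 h and 266 at 8 h in vehicle, and of 210 and 212 with aldosterone, with 1 fall in vehicle and 1 rise with aldosterone. The cardiac muscle markers, none of which was called, had mean sums of 114 and 70.6 in vehicle and of 104 and 183 with aldosterone, where the 8 h pools ran from 76.9 to 394. The red blood cell sums went from a mean of 261 to 114 and from 337 to 88.4, with 1 fall, with aldosterone. In bulk tissue, fewer cells of a type and less RNA per cell cannot be told apart, and the part of these markers in the fall of the collagens was not tested. The RNA integrity controls, the log2 signal of 3′ over 5′ probe sets, read 0.61 ± 0.05 (SD, n = 3) for Gapdh in vehicle at 2 h and 0.43 ± 0.09 at 8 h. For beta-actin they read 1.95 ± 0.27 and 1.77 ± 0.26. With aldosterone the means were 0.61 and 0.46 for Gapdh and 1.83 and 1.77 for beta-actin.

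The sequences upstream of the transcription start are shown for 4 genes that fell in both treatments and for Col6a3, whose samples at 8 h all lay above those at 2 h. They are the 150 bases before the start in RefSeq (GRCm38.p6), in the direction of transcription. Capitals mark matches on either strand to 3 promoter motifs, the TATA box (TATAAA), the CCAAT box (CCAAT) and the GC box (GGGCGG), which do not overlap each other here.
Col1a2, chr6:4505468-4505617, + strand: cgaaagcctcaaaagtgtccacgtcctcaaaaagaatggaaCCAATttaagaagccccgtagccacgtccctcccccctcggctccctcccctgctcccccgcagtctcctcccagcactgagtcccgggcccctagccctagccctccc
Col5a1, chr2:27886275-27886424, + strand: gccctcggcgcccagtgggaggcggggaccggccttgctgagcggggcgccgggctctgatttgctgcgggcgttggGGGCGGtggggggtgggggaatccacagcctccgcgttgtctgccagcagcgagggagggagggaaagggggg
Col4a5, chrX:141475269-141475418, + strand: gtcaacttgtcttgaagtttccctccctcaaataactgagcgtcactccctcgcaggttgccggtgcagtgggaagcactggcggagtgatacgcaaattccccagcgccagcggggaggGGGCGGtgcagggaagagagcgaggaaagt
Col4a6, chrX:141474077-141474226, - strand: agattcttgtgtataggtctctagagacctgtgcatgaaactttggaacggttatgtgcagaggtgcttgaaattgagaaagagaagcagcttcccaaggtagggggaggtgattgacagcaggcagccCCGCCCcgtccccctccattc
Col6a3, chr1:90843972-90844121, - strand: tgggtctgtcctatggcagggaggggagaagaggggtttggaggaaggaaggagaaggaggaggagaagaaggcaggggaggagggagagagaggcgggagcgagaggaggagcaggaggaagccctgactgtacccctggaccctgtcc
The Col1a2 window holds a CCAAT match, those of Col5a1, Col4a5 and Col4a6 each hold a GGGCGG match (read as CCGCCC in Col4a6, where it lies on the other strand), and that of Col6a3 holds no match to these letters. The windows of Col4a4 and Col19a1, not shown, hold no match either, and both genes fell in both treatments. Counted over the 250 bases before the start, TATAAA was present in 12.4% of 32851 RefSeq promoters and in 5 of 30 collagen windows (27 genes). CCAAT was present in 33.8% and in 12 of 30, and GGGCGG in 32.7% and in 16 of 30. Col4a5 and Col4a6 start 1343 bases apart on opposite strands of chromosome X, and Col4a1 and Col4a2 start 21 bases apart on opposite strands of chromosome 8.

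Of the fibrillar collagens, the main load-bearing fibres, 10 of 12 probe sets fell in vehicle and 11 of 12 with aldosterone from 2 to 8 h, with medians of -1.24 and -1.46. Of all tested probe sets 30.7% fell in vehicle and 25.9% with aldosterone. Col1a2, the alpha-2 chain of type I collagen, read 13.63, 13.31 and 13.20 at 2 h, 12.80, 12.80 and 13.15 at 4 h, and 11.95, 11.86 and 11.64 at 8 h in vehicle on probe set 1450857_a_at. The aldosterone samples read 13.20, 13.47 and 13.51 at 2 h, 12.84, 12.65 and 12.80 at 4 h, and 11.68, 11.78 and 11.76 at 8 h. No sample of a later hour reached any sample of an earlier hour, and the fall from 2 to 8 h was 2.96-fold in vehicle (-1.56 ± 0.13 on the log2 scale, adjusted p = 1.98e-08) and 3.15-fold with aldosterone (adjusted p = 1.1e-08). The other Col1a2 probe set, 1423110_at, read 12.29, 11.93 and 11.82 at 2 h, 10.70, 11.03 and 11.22 at 4 h, and 9.45, 9.39 and 9.07 at 8 h in vehicle. With aldosterone its values were 11.90, 11.94 and 11.82 at 2 h, 11.07, 10.69 and 10.85 at 4 h, and 9.17, 9.12 and 8.92 at 8 h. Here too the hours did not overlap, and the falls were 6.54-fold (adjusted p = 2.23e-10) and 7.03-fold (adjusted p = 1.51e-10).

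Col1a1, the alpha-1 chain of type I collagen, read 11.12, 11.11 and 10.95 at 2 h, 10.66, 10.51 and 10.48 at 4 h, and 9.73, 9.69 and 9.31 at 8 h in vehicle (1423669_at). Its values with aldosterone were 10.93, 11.09 and 11.18 at 2 h, 10.62, 10.38 and 10.57 at 4 h, and 9.66, 9.72 and 9.29 at 8 h. The hours were again separate in all samples, with a fall of 2.79-fold in vehicle (-1.48 ± 0.13, adjusted p = 7.24e-08) and of 2.84-fold with aldosterone (adjusted p = 6.25e-08). Its second probe set, 1455494_at, fell 2.33-fold and 3.13-fold (adjusted p = 3.35e-05 and 1.3e-06).

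Col3a1, the single chain of type III collagen, read 10.93, 13.86 and 13.84 at 2 h, 13.03, 13.30 and 13.57 at 4 h, and 12.66, 12.20 and 11.90 at 8 h in vehicle (1427883_a_at). With aldosterone it read 13.79, 13.97 and 13.94 at 2 h, 13.35, 12.82 and 13.01 at 4 h, and 12.21, 12.50 and 12.31 at 8 h. Vehicle 2 h replicate 1, at 10.93, lay below all 6 samples of 8 h, whereas the other 5 samples of 2 h lay above every later sample. With this replicate the vehicle difference from 2 to 8 h was -0.62 ± 0.50 (adjusted p = 0.303), and without it -1.60 ± 0.19 (adjusted p = 1.97e-06). It was -0.13 without vehicle 2 h replicate 2 and -0.14 without replicate 3. From 2 to 4 h in vehicle the difference was 0.43 ± 0.50 with replicate 1 (adjusted p = 0.539) and -0.55 ± 0.19 without it (adjusted p = 0.0326), the opposite sign. With aldosterone the fall was 2.95-fold (adjusted p = 0.0139). The second probe set, 1427884_at, on which vehicle 2 h replicate 1 read 9.51 and the others 8.47 and 8.94, fell 3.11-fold in vehicle and 3.33-fold with aldosterone (adjusted p = 0.000192 and 0.00011).

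Type V collagen, built into type I fibrils, fell for Col5a1 and Col5a2. Col5a1, whose upstream window is shown above, read 10.63, 10.69 and 10.70 at 2 h, 10.38, 10.40 and 10.52 at 4 h, and 9.67, 9.98 and 9.50 at 8 h in vehicle (1416740_at). The aldosterone samples read 10.83, 10.81 and 10.65 at 2 h, 10.45, 10.29 and 10.54 at 4 h, and 9.49, 9.91 and 9.79 at 8 h. All samples of an earlier hour lay above those of a later hour. The difference from 2 to 4 h was -0.24 ± 0.13 in vehicle (adjusted p = 0.153) and -0.33 ± 0.13 with aldosterone (adjusted p = 0.0532), and that from 4 to 8 h was -0.72 (adjusted p = 0.000373) and -0.70 (adjusted p = 0.000478). From 2 to 8 h the 3 Col5a1 probe sets fell by 0.96 to 1.25 in vehicle and by 1.03 to 1.42 with aldosterone.

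Col5a2 read 12.64, 12.05 and 12.12 at 2 h, 11.74, 11.86 and 11.90 at 4 h, and 11.33, 11.38 and 11.00 at 8 h in vehicle (1422437_at). Its values with aldosterone were 12.08, 12.05 and 12.09 at 2 h, 12.15, 11.76 and 12.06 at 4 h, and 11.40, 11.55 and 11.36 at 8 h. The samples of 2 and 4 h overlapped and those of 8 h lay below both, with falls from 2 to 8 h of 2.05-fold (adjusted p = 1.06e-05) and 1.55-fold (adjusted p = 0.00123). The second Col5a2 probe set, 1450625_at, fell 3.69-fold and 2.59-fold (adjusted p = 2.95e-06 and 8.82e-05). Col5a3, the third chain gene of type V, ranged from 4.24 to 4.71 over all 18 samples, near the level set for testing, and differed by 0.04 ± 0.15 and -0.04 ± 0.15 from 2 to 8 h (adjusted p = 0.86 and 0.858).

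**Figure D3:**
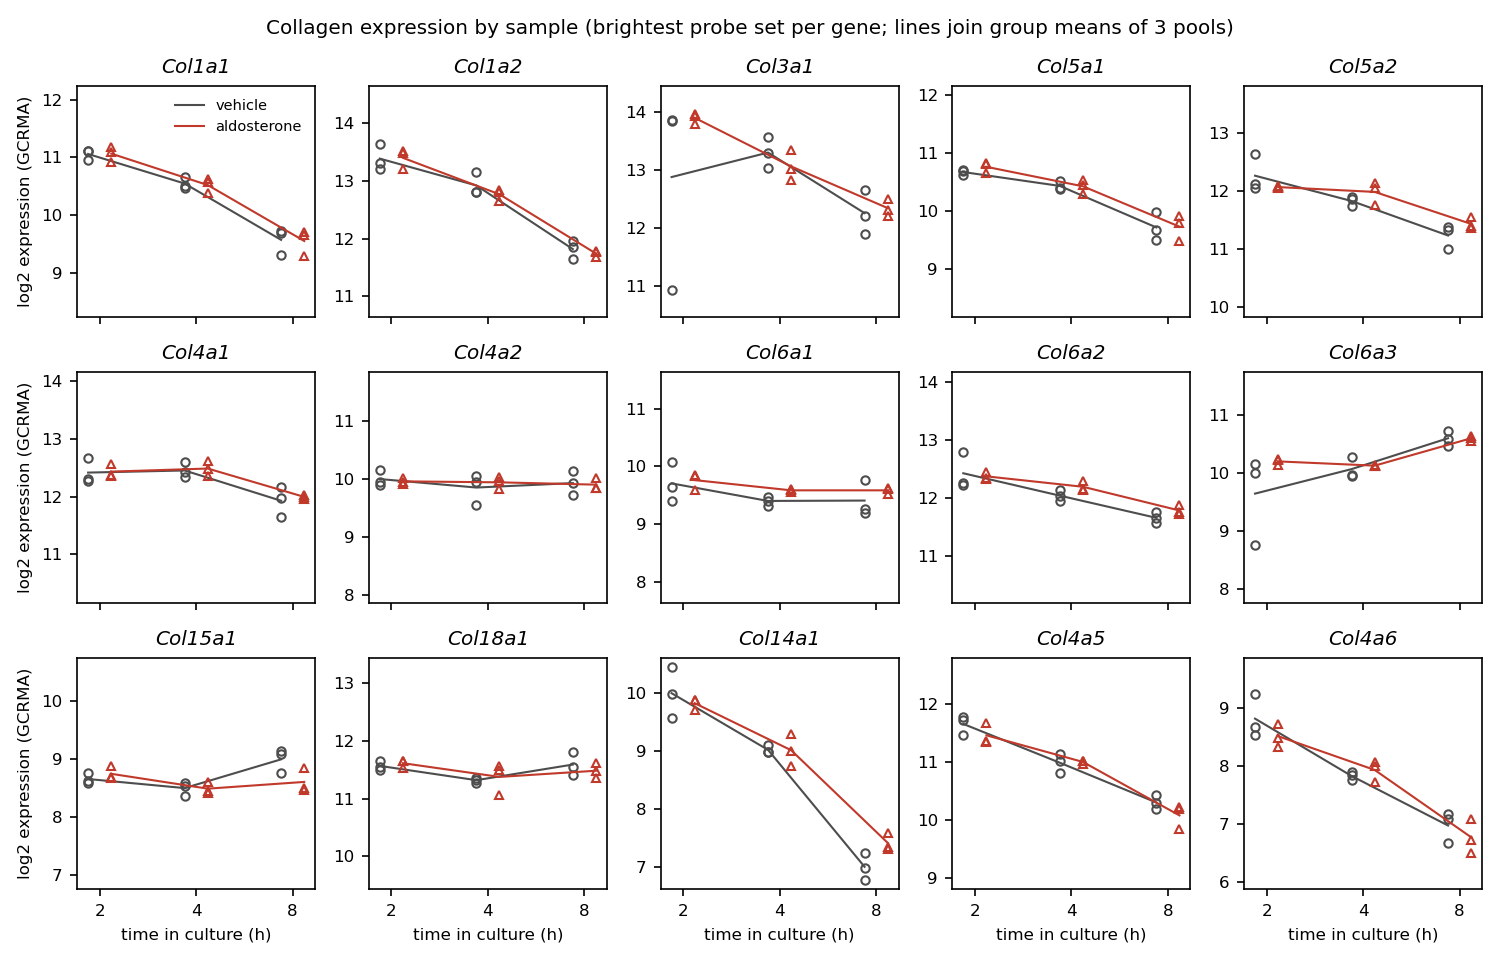
Log2 expression of 15 collagen genes in each of the 18 samples, by the probe set of each gene with the highest mean. Circles are vehicle pools, triangles are aldosterone pools, lines join group means, the 3 times are evenly spaced, and every panel spans the same range of log2 units; the low Col3a1 point at 2 h is vehicle replicate 1 at 10.93.

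Of type IV collagen, the network of basement membranes, 6 of 8 probe sets fell from 2 to 8 h in each treatment, with medians of -0.99 in vehicle and -1.10 with aldosterone. Among those that fell, Col4a4 was tested only through samples of 2 and 4 h, where it is higher. The filter thus favoured its fall, which adds no support to this count. The share of all tested probe sets that fell was 30.7% in vehicle and 25.9% with aldosterone. Col4a5, on chromosome X beside Col4a6, read 11.47, 11.77 and 11.72 at 2 h, 11.02, 11.13 and 10.80 at 4 h, and 10.28, 10.42 and 10.19 at 8 h in vehicle (1425476_at). With aldosterone it read 11.67, 11.34 and 11.36 at 2 h, 11.02, 10.96 and 11.01 at 4 h, and 10.21, 10.18 and 9.83 at 8 h. Its samples were separate between hours, with a fall of 2.55-fold in vehicle (adjusted p = 1.38e-07) and of 2.61-fold with aldosterone (adjusted p = 1.13e-07).

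Col4a6, which forms a network with Col4a5 around smooth muscle cells, read 9.25, 8.54 and 8.67 at 2 h, 7.76, 7.89 and 7.84 at 4 h, and 7.08, 7.17 and 6.67 at 8 h in vehicle (1421007_at). The aldosterone samples read 8.73, 8.49 and 8.33 at 2 h, 8.07, 7.72 and 8.01 at 4 h, and 7.08, 6.73 and 6.50 at 8 h. These samples were separate between hours as well, and the falls were 3.59-fold (adjusted p = 4.74e-07) and 3.35-fold (adjusted p = 9.72e-07). The second probe sets fell too, Col4a5 (1425475_at) by 1.46 in vehicle and 1.52 with aldosterone, and Col4a6 (1421006_at) by 1.23 and 1.41 on the log2 scale. Col4a4, a chain best known from kidney basement membrane, lay between 4.15 and 4.53 at 2 h and below 4 in all samples of 8 h, so its fall was at least 1.27-fold in vehicle and at least 1.31-fold with aldosterone, counted to the log2 level of 4 (adjusted p = 0.000649 and 0.00033).

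Of the 3 tested probe sets of Col4a1 and Col4a2, the chains of the basement membrane found in most tissues, 1 fell from 2 to 8 h in both treatments. Of all tested probe sets 23% did so. Col4a1 read 12.67, 12.26 and 12.31 at 2 h, 12.34, 12.42 and 12.59 at 4 h, and 12.17, 11.97 and 11.64 at 8 h in vehicle (1452035_at). Its values with aldosterone were 12.35, 12.56 and 12.38 at 2 h, 12.61, 12.48 and 12.36 at 4 h, and 12.03, 12 and 11.95 at 8 h. The samples of 2 and 4 h overlapped and all samples of 8 h lay below them, with a fall of 1.4-fold in vehicle (-0.49 ± 0.13, adjusted p = 0.00468) and of 1.35-fold with aldosterone (adjusted p = 0.00949). In vehicle this call was lost when only the samples compared were fitted, and median centring gave -0.32. On the other Col4a1 probe set, 1426348_at, the differences were -0.11 ± 0.15 and -0.03 ± 0.15 (adjusted p = 0.569 and 0.903), and without vehicle 2 h replicate 1 that in vehicle was 0.08 (adjusted p = 0.617).

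Col4a2 read 10.15, 9.89 and 9.95 at 2 h, 9.55, 9.95 and 10.05 at 4 h, and 10.13, 9.93 and 9.72 at 8 h in vehicle (1424051_at). With aldosterone it read 9.91, 10.01 and 9.95 at 2 h, 9.82, 10.04 and 9.96 at 4 h, and 9.85, 10.01 and 9.84 at 8 h. All hours overlapped, and the differences from 2 to 8 h were -0.07 ± 0.13 in vehicle (adjusted p = 0.663) and -0.06 ± 0.13 with aldosterone (adjusted p = 0.745). In fold terms the 95% intervals ran from 0.781 to 1.16 times the 2 h level in vehicle and from 0.788 to 1.17 times with aldosterone.

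Type VI collagen, whose 3 chains on the array assemble into one filament, had 1 probe set that fell in both treatments, 1 that rose in vehicle, and 2 that were called in neither. Of all tested probe sets 23% fell in both treatments from 2 to 8 h and 25.6% rose in vehicle. Col6a1 read 10.07, 9.64 and 9.41 at 2 h, 9.41, 9.48 and 9.32 at 4 h, and 9.76, 9.27 and 9.20 at 8 h in vehicle (1448590_at). The aldosterone samples read 9.84, 9.59 and 9.86 at 2 h, 9.55, 9.61 and 9.60 at 4 h, and 9.53, 9.62 and 9.61 at 8 h. The hours overlapped, and the differences from 2 to 8 h were -0.30 ± 0.16 (adjusted p = 0.119) and -0.18 ± 0.16 (adjusted p = 0.371). The vehicle difference was past the threshold without vehicle 2 h replicate 3, at -0.45, and without vehicle 8 h replicate 1, at -0.47, and it was -0.11 without vehicle 2 h replicate 1 (adjusted p = 0.503).

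Col6a2 read 12.80, 12.23 and 12.25 at 2 h, 11.95, 12.03 and 12.14 at 4 h, and 11.76, 11.65 and 11.56 at 8 h in vehicle (1452250_a_at). Its values with aldosterone were 12.34, 12.45 and 12.33 at 2 h, 12.13, 12.16 and 12.29 at 4 h, and 11.72, 11.87 and 11.76 at 8 h. All samples of 8 h lay below all earlier samples, and the falls from 2 to 8 h were 1.71-fold (adjusted p = 5.17e-05) and 1.5-fold (adjusted p = 0.000672). On its other probe set, 1426947_x_at, the differences were -0.16 ± 0.19 (adjusted p = 0.499) and -0.30 ± 0.19 (adjusted p = 0.196), and without vehicle 2 h replicate 1 they were -0.43 (adjusted p = 0.0116) and -0.30 (adjusted p = 0.0439).

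Col6a3, the longest chain of the filament, had all its 8 h samples above the earlier ones. It read 8.77, 10.17 and 10.01 at 2 h, 9.95, 9.98 and 10.29 at 4 h, and 10.74, 10.60 and 10.48 at 8 h in vehicle (1424131_at). With aldosterone it read 10.14, 10.23 and 10.25 at 2 h, 10.14, 10.13 and 10.13 at 4 h, and 10.56, 10.61 and 10.65 at 8 h. The lowest 8 h sample was at 10.48 and the highest earlier sample at 10.29. In vehicle Col6a3 rose by 0.95 ± 0.24 from 2 to 8 h (adjusted p = 0.00239), and with aldosterone the difference was 0.40 ± 0.24 (adjusted p = 0.162). Vehicle 2 h replicate 1 was the lowest of the 18 samples at 8.77. Without it the rises were 0.52 ± 0.10 in vehicle (adjusted p = 0.00042) and 0.40 ± 0.09 with aldosterone (adjusted p = 0.0012). The vehicle call was lost when only the samples compared were fitted.

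Among the collagens that bind to fibril surfaces, 4 of 6 probe sets fell from 2 to 8 h in each treatment, with medians of -1.41 and -1.05. Col19a1, which fell, and Col9a3, which was not called, were tested only through samples of 2 and 4 h. The filter thus favoured a fall for both, and the fall of Col19a1 adds no support to this count. The share of all tested probe sets that fell was 30.7% in vehicle and 25.9% with aldosterone. Col14a1, which binds fibrils and is a marker of adventitial fibroblasts, read 10.45, 9.98 and 9.57 at 2 h, 8.98, 8.98 and 9.10 at 4 h, and 7.24, 6.78 and 6.98 at 8 h in vehicle (1427168_a_at). The aldosterone samples read 9.71, 9.89 and 9.88 at 2 h, 9.29, 8.75 and 9.00 at 4 h, and 7.34, 7.59 and 7.31 at 8 h. Hours did not overlap, and the falls of 7.99-fold in vehicle (-3.0 ± 0.19, adjusted p = 8.07e-10) and 5.33-fold with aldosterone (-2.41 ± 0.19, adjusted p = 1.23e-08) were accompanied by falls of 4.82-fold and 3.15-fold on its second probe set, 1428455_at.

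Col19a1, a rare collagen of basement membrane zones, read 5.71, 4.20 and 5.00 at 2 h, 3.98, 4.50 and 3.57 at 4 h, and 2.88, 2.89 and 2.44 at 8 h in vehicle (1421698_a_at). Its values with aldosterone were 4.35, 3.93 and 4.00 at 2 h, 4.03, 4.22 and 3.94 at 4 h, and 2.64, 2.36 and 2.47 at 8 h. All samples of 8 h lay below 4 and below every earlier sample, so the fall was at least 1.96-fold in vehicle and at least 1.07-fold with aldosterone, counted to the log2 level of 4 (adjusted p = 4.98e-06 and 0.00017). Col16a1 fell 1.49-fold and 1.42-fold (adjusted p = 0.00256 and 0.0066). Col12a1, another surface collagen, lay between 3.96 and 4.57 in all samples, and its differences were -0.17 and -0.14 (adjusted p = 0.357 and 0.45). For Col9a3 they were -0.32 and -0.04 (adjusted p = 0.106 and 0.845).

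Col15a1 and Col18a1 encode proteoglycan collagens of basement membrane zones whose C-terminal fragments are the endostatins. Col15a1 read 8.59, 8.76 and 8.62 at 2 h, 8.59, 8.54 and 8.37 at 4 h, and 9.09, 9.14 and 8.76 at 8 h in vehicle (1448755_at). With aldosterone it read 8.67, 8.69 and 8.88 at 2 h, 8.42, 8.60 and 8.45 at 4 h, and 8.47, 8.85 and 8.50 at 8 h. In vehicle the 8 h samples lay above those of 4 h and at or above those of 2 h, the lowest of 8 h and the highest of 2 h both rounding to 8.76, whereas with aldosterone the samples of 2 and 8 h overlapped. Col15a1 rose in vehicle by 0.50 ± 0.13 from 4 to 8 h (adjusted p = 0.00776) and by 0.34 ± 0.13 from 2 to 8 h (adjusted p = 0.0377). With aldosterone the differences were 0.12 and -0.14 (adjusted p = 0.545 and 0.399). The call from 2 to 8 h was lost without vehicle 2 h replicate 1 (0.31) or 3 (0.32) and without vehicle 8 h replicate 1 (0.30) or 2 (0.27). The difference between the treatments' time courses was the smallest p of the collagens in the test between times, 0.0485 before adjustment and 0.865 after it.

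Col18a1 read 11.64, 11.55 and 11.50 at 2 h, 11.27, 11.32 and 11.36 at 4 h, and 11.81, 11.54 and 11.41 at 8 h in vehicle on 1418237_s_at. The aldosterone samples read 11.65, 11.53 and 11.65 at 2 h, 11.06, 11.57 and 11.49 at 4 h, and 11.36, 11.61 and 11.47 at 8 h. The samples of 2 and 8 h overlapped, with differences of 0.03 ± 0.13 and -0.13 ± 0.13 (adjusted p = 0.873 and 0.393). Its other probe set, 1426955_at, fell 1.42-fold in vehicle (adjusted p = 0.0017) and 1.44-fold with aldosterone (adjusted p = 0.00115).

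Probe sets of the same gene gave different sizes of change for most of the genes that had several. The change from 2 to 8 h, averaged over both treatments, was compared between the brightest probe set of a gene and each other tested probe set of that gene in 12 pairs. The test was an exact two-sided permutation of the 2 h and 8 h labels within treatments, with 400 relabellings and 0.005 as the smallest p it can give. In 8 of 12 pairs the difference had a p under 0.05 after adjustment over the pairs, and in 8 also without vehicle 2 h replicate 1. The change of the other probe set lay below that of the brightest for Col1a2 by a mean difference of -1.15 (exact p = 0.005, adjusted p = 0.012), for Col5a2 by -0.80 (adjusted p = 0.012), for Col18a1 by -0.46 (adjusted p = 0.012) and for Col5a1 1434479_at by -0.34 (adjusted p = 0.0257). It lay above for Col14a1 by 0.74 (adjusted p = 0.012), for Col4a6 by 0.48 (adjusted p = 0.03), for Col6a2 by 0.45 (adjusted p = 0.0257, and 0.22 with adjusted p = 0.045 without vehicle 2 h replicate 1) and for Col4a1 by 0.40 (adjusted p = 0.012). For Col1a1 the difference was 0.06, for Col4a5 -0.12, for Col5a1 1416741_at -0.23 and for Col3a1 -0.59, with adjusted p of 0.71, 0.51, 0.327 and 0.545. Without vehicle 2 h replicate 1 they were -0.04, -0.01, -0.23 and 0.03, with adjusted p of 0.828, 0.93, 0.453 and 0.93. In the naming of these arrays, the ending _a_at marks probes shared by several transcripts of a gene, _s_at probes shared between genes, and _x_at probes that may also bind other sequences. Of the tested collagen probe sets, 1418237_s_at (Col18a1) and 1426947_x_at (Col6a2) carry the latter endings, and their values are therefore less certain to come from that gene alone.

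**Figure D4:**
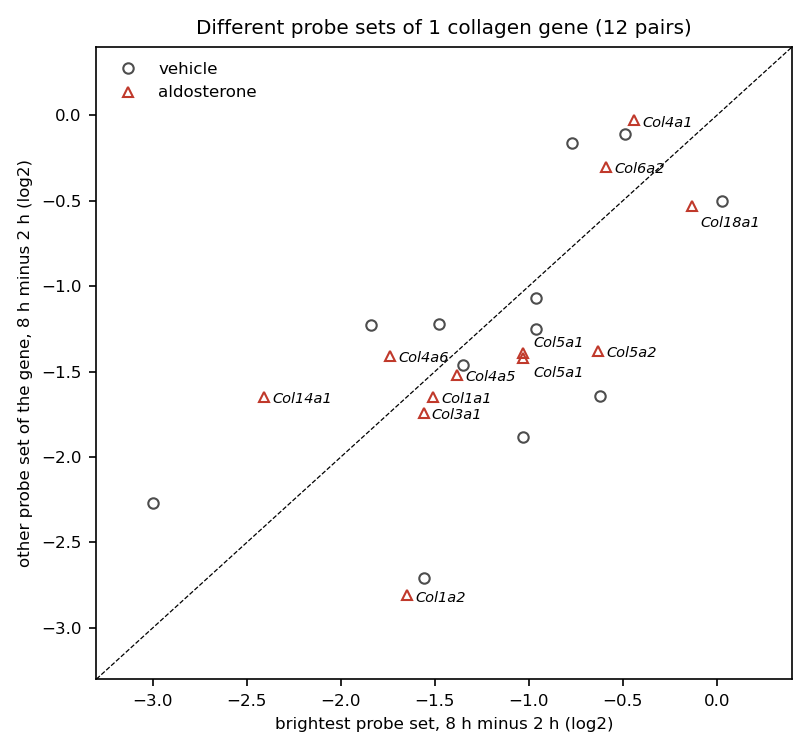
Change from 2 to 8 h on the log2 scale in the brightest probe set of a collagen gene (horizontal) and in another probe set of that gene (vertical), for 12 pairs. Circles are vehicle and triangles aldosterone, each a difference of means of 3 pools, labels stand beside the aldosterone points, and the dashed line marks equal change; the Col1a2 points lie below the line and the Col14a1 points above it.

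The genes that fold, modify, export and bind collagen moved in both directions. The counts stand beside 25.6% of all tested probe sets that rose and 30.7% that fell from 2 to 8 h in vehicle, and 28.8% and 25.9% with aldosterone. Of the folding and modification genes, 14 of 19 listed were tested, and from 2 to 8 h 7 rose and 6 fell in vehicle and 7 rose and 5 fell with aldosterone. Those that rose in both were the prolyl 4-hydroxylase subunits P4ha1, P4ha2 and P4hb, the lysyl hydroxylases Plod1, Plod2 and Plod3, and the collagen chaperone Serpinh1. P4ha1, a catalytic subunit of prolyl hydroxylation, read 9.21, 8.04 and 8.27 at 2 h, 9.38, 9.36 and 9.49 at 4 h, and 10.73, 10.80 and 10.66 at 8 h in vehicle. Its values with aldosterone were 8.77, 8.28 and 8.49 at 2 h, 9.52, 9.73 and 9.66 at 4 h, and 10.59, 10.75 and 10.86 at 8 h. Its rise from 2 to 8 h was 2.22 ± 0.21 in vehicle (adjusted p = 1.29e-07) and 2.22 ± 0.21 with aldosterone (adjusted p = 1.4e-07). P4ha2, the other tested catalytic subunit, rose by 2.32 ± 0.23 and 2.42 ± 0.23 (adjusted p = 1.63e-07 and 1.05e-07). Fkbp7, a prolyl isomerase of the endoplasmic reticulum, fell by 1.42 ± 0.14 and 1.37 ± 0.14 (adjusted p = 2.36e-07 and 3.99e-07), and P3h3, P3h4, Crtap and Ppib also fell in both treatments. P3h1 fell in vehicle only, with differences of -0.51 ± 0.15 in vehicle and -0.16 ± 0.15 with aldosterone (adjusted p = 0.00995 and 0.397).

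Of 12 listed export and propeptide processing genes, 6 were tested, and 3 fell in vehicle, while 4 fell and 1 rose with aldosterone, against 30.7% and 25.9% of all tested probe sets that fell. Without vehicle 2 h replicate 1 Mia3, which takes part in the export of procollagen, also rose in vehicle, by 0.41 (adjusted p = 0.00301), against 0.19 with it. Pcolce, an enhancer of the protease that trims fibrillar procollagen, fell by 1.92 ± 0.19 and 1.61 ± 0.19 (adjusted p = 1.64e-07 and 1.31e-06), its relative Pcolce2 by 0.61 ± 0.13 and 1.0 ± 0.13 (adjusted p = 0.000559 and 3.35e-06), and the vesicle coat gene Sec23a by 0.88 ± 0.16 and 0.54 ± 0.16 (adjusted p = 0.000189 and 0.00984). Of 8 listed receptors 5 were tested. The integrin chain Itga2 was tested only through samples of 8 h, where it is higher. It read between 2.79 and 2.88 in all samples of 2 and 4 h, 4.69, 4.15 and 4.31 in vehicle at 8 h and 4.88, 3.02 and 3.18 with aldosterone at 8 h. The level with aldosterone thus rests on 1 pool, and no fold is given. Of the other 4 receptors 1 rose in both treatments, where 25.6% and 28.8% of all tested probe sets rose. It was Ddr2, a receptor kinase for fibrillar collagen, which rose by 1.43 ± 0.15 and 1.09 ± 0.15 (adjusted p = 3.45e-07 and 8.01e-06). Ddr1, a kinase related to Ddr2, fell in vehicle by 0.36 ± 0.12 (adjusted p = 0.0174), and with aldosterone its difference was -0.16 ± 0.12 (adjusted p = 0.294). The vehicle call was lost without vehicle 2 h replicate 1, at -0.24 ± 0.11 (adjusted p = 0.0664).

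Of the 9 collagen-binding matrix genes, all tested, 7 fell and 1 rose in each treatment, while 30.7% of all tested probe sets fell in vehicle and 25.9% with aldosterone. Ogn, a small proteoglycan of fibrils, fell by 2.53 ± 0.13 in vehicle and 2.65 ± 0.13 with aldosterone (adjusted p = 5.18e-11 and 3.68e-11), Prelp by 2.15 ± 0.19 and 2.23 ± 0.19 (adjusted p = 7.07e-08 and 5.1e-08), and Sparc, a collagen chaperone and matrix protein, by 1.10 ± 0.10 and 1.46 ± 0.10 (adjusted p = 6.01e-08 and 2.34e-09). Lum, Fmod, Dcn and Bgn, further small proteoglycans, also fell, and Dcn and Lum are at the same time fibroblast markers. Fn1, the matrix protein fibronectin, named because it was the 1 gene of the list that rose, rose by 0.79 ± 0.14 in both (adjusted p = 0.000116 and 0.000123). Without vehicle 2 h replicate 1 Thbs1, a matrix protein of platelets and vessel cells, also rose, by 0.83 in vehicle and 0.47 with aldosterone (adjusted p = 6.33e-06 and 0.000546), against 0.46 and 0.47 with it. In none of these 4 lists was a gene past the threshold in any comparison of aldosterone with vehicle, and before adjustment p was under 0.05 for 0 to 1 genes per list at each time and in the average. Of all tested probe sets 0.0712%, 0.222% and 1.01% were called at 2, 4 and 8 h, and 1.14% in the average. For lists this short a count of 0 is close to these shares.

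**Figure D5:**
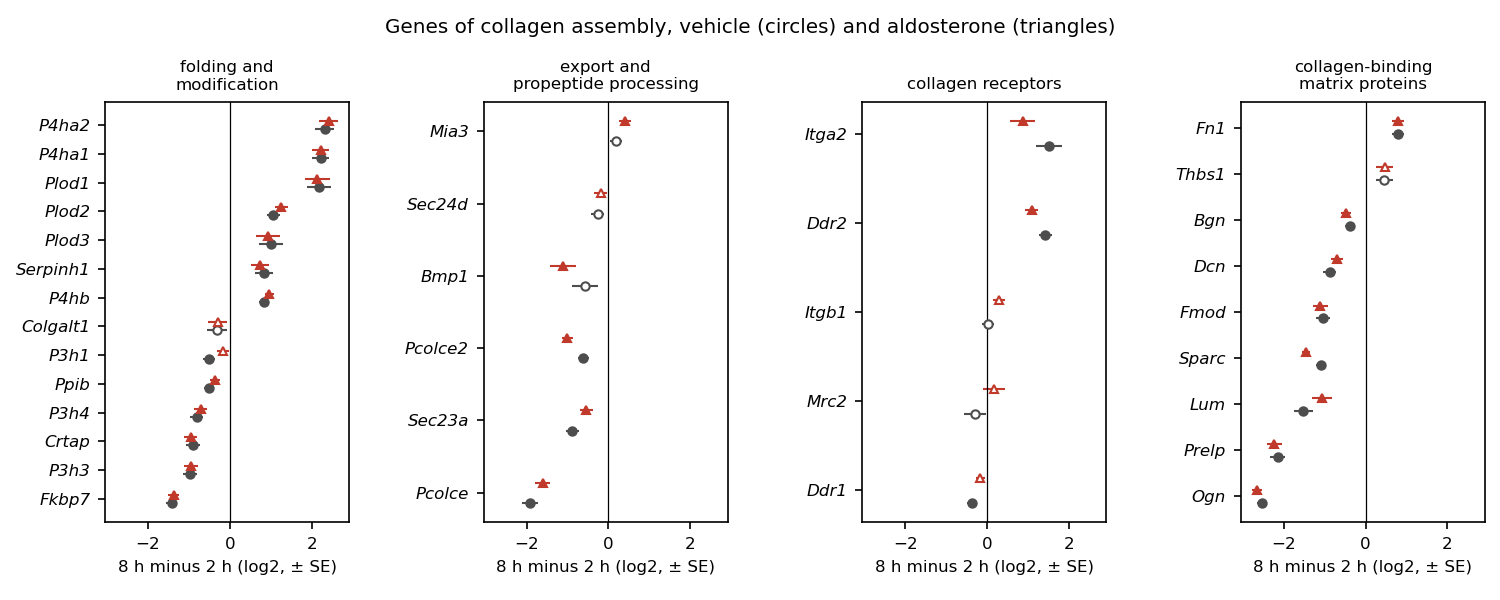
Change from 2 to 8 h on the log2 scale of the tested genes that fold and modify, export and process, receive or bind collagen. Circles are vehicle and triangles aldosterone, bars are standard errors of differences between means of 3 pools, and filled symbols have an adjusted p under 0.05; Itga2 was tested only through samples of 8 h, and the prolyl 4-hydroxylase and lysyl hydroxylase genes lie right of 0 and most matrix proteins left of 0.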

How the data were processed

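RNA from pooled mouse aortas was measured on 1-colour Affymetrix arrays, 1 for each of the 18 samples. The authors deposited log2 expression values per probe set, normalized with GCRMA per the submitters' processing notes. GCRMA corrects background by probe sequence and normalizes by quantiles, which makes sample medians alike. Its version was not given in the sources used here. The values were used as deposited. Of the 22690 probe sets, 20380 had 1 gene symbol and were not controls, 691 had several and 1606 had none. The array also held 64 controls, some of which are counted among those with several or none. Of those with 1 gene, 20351 were matched to RefSeq, all 58 collagen members among them.

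Probe sets above log2 4 in at least 3 samples (11236) were fitted together by limma 3.58.1 (R 4.3.3) as 6 group means over all 18 samples, with an intensity trend in the variance. The residual degrees of freedom were 12, and 17.1 after moderation. Benjamini-Hochberg adjustment ran over all 11236, with a threshold of 0.05. The script was tested on simulated data. Tables were made with Python 3.11.15, pandas 2.3.3 and numpy 2.4.6. Promoter sequences are from RefSeq. Precision is limited by the number of arrays, 3 per group, and p-values measure the spread between pools.

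The collagens, the gene lists and the tests were chosen with earlier results of these data known. Values in every sample are given for vessel wall collagens that passed the filter and for the 6 largest rises and falls in vehicle from 2 to 8 h, both by the brightest probe set of the gene (highest mean), and for any probe set called in an aldosterone comparison. In each pathway list up to 3 genes with the smallest p have values. Other genes and probe sets named with values, such as those nearest the threshold at 8 h, were chosen after their values were seen. Alternatives left out the trend, changed or dropped the filter, took 1 probe set per gene, repeated quantile normalization, centred medians, added a replicate block, weighted arrays, fitted only the samples compared, or left out each sample.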

Additional observations from a re-analysis of the deposited data

How the results depend on the processing

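The counts of collagen probe sets past the threshold kept their side under most settings. For aldosterone against vehicle, dropping the filter gave 1 at 2 h and 1 in the average (Col20a1), quantile normalization 1 at 8 h (Col4a6), and array weights 3 at 8 h (Col4a6, Col14a1 and Col5a2), each against 0. The main fit called 0.0712% of all tested probe sets at 2 h, 1.01% at 8 h and 1.14% in the average. At 8 h this share was 1.6% without vehicle 2 h replicate 1, so it moves with the setting. The shares under the settings named are not given here, and these counts are not read as a result about the collagens. Leaving out each sample gave 0 at 2 h, at 4 h, in the average and between times, and 0 to 1 at 8 h. With 1 probe set per gene, where 21 collagen probe sets are tested in place of 33, the vehicle counts were 8 from 2 to 4 h, 14 from 2 to 8 h and 13 from 4 to 8 h, and the aldosterone counts 6, 13 and 11. The counts between times in this paragraph are calls in either direction. In vehicle the main fit made such calls for 36.5%, 56.3% and 35.4% of all tested probe sets, in the same order of intervals. With aldosterone it made them for 35.1%, 54.7% and 35.3%. The shares under the other settings are not given here. From 2 to 4 h, fitting only the samples compared gave 6 in vehicle, and dropping the filter gave 7 with aldosterone; the cause was not tested. Leaving out each sample gave 10 to 15, 23 to 25 and 16 to 22 in vehicle and 6 to 14, 23 to 25 and 18 to 23 with aldosterone, in the same order of intervals. Median centring shifted the median of all probe sets from 2 to 8 h in vehicle by 0.16, and the collagen median was then -0.80. Of the values of single probe sets, 2449 kept their side and sign, 9 gained a call and 16 lost one. A further 93, called in neither fit, changed sign, and 1 turned into a call of the opposite sign: Col3a1 (1427883_a_at) from 2 to 4 h in vehicle, 0.43 with all samples, -0.55 without vehicle 2 h replicate 1 and up to 0.92 without another. No called value changed sign. Same-numbered samples of the 2 treatments correlated at -0.19 to 0.28 in their deviations, 2 of 9 above 0.1. With 3 samples per group this cannot show whether the numbers pair the samples, and the main fit did not pair them. With a replicate block the counts were 0 in the aldosterone comparisons, 14, 24 and 20 in vehicle and 11, 23 and 20 with aldosterone.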
